A study of Homo sapiens with 6 samples.

Results

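The 10 genes described here encode inflammatory cytokines and chemokines that retinal pigment epithelium (RPE) is known to secrete when it is stressed or exposed to immune signals. They were chosen by gene symbol and make up 10 of the 33496 genes listed for each library: IL6, IL11 and LIF of the IL-6 family, IL1A and IL1B of the IL-1 family, the neutrophil-attracting chemokines CXCL8, CXCL1, CXCL2 and CXCL3, and the monocyte-attracting chemokine CCL2. Their RNA-seq values come from 6 libraries of the immortal human RPE line ARPE-19, which the labels give as wild type. All 6 were made from cells exposed to erastin (5 μM, 24 h), an inhibitor of the cystine transporter that sets off ferroptosis, an iron-dependent form of cell death. Erastin was the only agent in 3 of them (Era), while the other 3 had vitamin K1 (VK1, 10 μM) added 1 h before it (Era+VK). The study names DMSO as the solvent of erastin and ethyl alcohol as that of VK1. Libraries of ARPE-19 without erastin were not analysed here, so the values below give the levels under erastin and the difference with VK1, and not the response to erastin itself. Nothing in the labels says that the replicates came from separate cultures. The study's legend for the RNA-seq panels speaks of averages over 3 independent experiments, without saying how these relate to the libraries. The p-values therefore measure the spread between these libraries, which may be technical.

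As background, most of these genes are read from promoters bound by NF-κB together with AP-1 or C/EBP factors, and their mRNAs carry AU-rich elements that bind decay factors such as those of the ZFP36 family. IL-6 family ligands signal through the shared receptor chain gp130 and JAK kinases to STAT3. IL-1α and IL-1β signal through IL1R1 to NF-κB and so raise chemokine genes in neighbouring cells. CXCL1, CXCL2, CXCL3 and CXCL8 act on the receptor CXCR2, and CCL2 acts on CCR2, both mainly carried by leukocytes. In the eye, RPE-derived CCL2, CXCL8 and IL-6 have been tied to leukocyte entry and to angiogenesis.

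The promoters of these chemokines are shown first because they carry the letters by which the group is usually recognised. RefSeq (GRCh38.p14) held promoter entries of 300 bases for 8 of the 10 genes, from 250 bases before to 50 bases after the start that RefSeq gives. This start can lie inside the wider GENCODE span by which genes are placed below, as it does for IL6, CXCL8, CXCL2 and CXCL3. LIF and CCL2 had no entry, and IL1A had an entry for each of 2 starts. Both strands were searched for the NF-κB motif GGNNTTTCC, the AP-1 motif TGANTCA and the TATA box TATAAA. Matches to the NF-κB motif were found for 5 genes (CXCL8, CXCL1, CXCL2, CXCL3 and IL6), and 6.26% of all 35116 promoter entries hold one. AP-1 matches were found for 3 genes (CXCL8, IL1A and IL11), against 7.71% of all entries. The lines below give the 130 bases from position -150 to position -21 of the 5 promoters with an NF-κB match, counted from the RefSeq start and read 5′ to 3′ on the strand of the gene, with matches to any of the 3 motifs in capitals. None of the matches shown overlaps another. The positions are chr4:73740419-73740548 on the plus strand for CXCL8, chr4:73869243-73869372 on the plus strand for CXCL1, chr4:74099216-74099345 on the minus strand for CXCL2, chr4:74038710-74038839 on the minus strand for CXCL3 and chr7:22727050-22727179 on the plus strand for IL6.
CXCL8: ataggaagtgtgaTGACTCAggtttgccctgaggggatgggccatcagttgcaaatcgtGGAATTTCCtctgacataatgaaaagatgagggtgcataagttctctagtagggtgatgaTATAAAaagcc
CXCL1: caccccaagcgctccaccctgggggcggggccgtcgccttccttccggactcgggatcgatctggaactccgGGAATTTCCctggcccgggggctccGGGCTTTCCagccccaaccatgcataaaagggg
CXCL2: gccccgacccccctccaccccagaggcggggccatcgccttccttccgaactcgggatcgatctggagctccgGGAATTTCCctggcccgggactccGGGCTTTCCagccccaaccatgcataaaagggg
CXCL3: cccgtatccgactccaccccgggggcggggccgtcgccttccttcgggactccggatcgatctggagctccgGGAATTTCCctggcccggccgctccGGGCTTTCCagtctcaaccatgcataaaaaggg
IL6: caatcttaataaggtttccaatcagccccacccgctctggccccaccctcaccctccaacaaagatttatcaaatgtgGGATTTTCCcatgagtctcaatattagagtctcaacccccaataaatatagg
CXCL1, CXCL2 and CXCL3 each hold 2 NF-κB matches, the first 78, 77 and 78 bases before the RefSeq start and the second 53 bases before it in all 3. Aligned over their 300 bases, CXCL1 and CXCL3 were 82.5% identical, CXCL2 and CXCL3 73.7% and CXCL1 and CXCL2 69.8%, while CXCL8 was 43.11% to 44.15% identical to these. CXCL8 has a single match 91 bases before the start, with an AP-1 match 137 bases and a TATA box 31 bases before it. IL6 has a single match 72 bases before its RefSeq start. The motif TGATGNAA, which ATF4 and its partners are known to bind, was not found in the 9 entries of these genes (3.62% of all entries hold it), and the STAT motif TTCNNNGAA was found in that of IL1B alone (7.66% of all entries). At a share of 3.62%, no match in 9 entries is the likely outcome, and LIF and CCL2 had no entry. All matches given here are of letters within short windows, and binding was not measured.

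Levels are in FPKM, the number of fragments scaled by transcript length and by the size of the library, which the files give with 2 decimals and which allows genes of different length to be compared. There are no counts in the files, whole reads could not be recovered from the low values, and the depth of each library is therefore unknown, with no counting error to give. Between 24143 and 24601 genes per library were above 0. Of all listed genes, 64.2% had a mean under 1 FPKM over the 6 libraries. The epithelial keratins KRT8 and KRT18 were at 170.8 FPKM or more in every library and the RPE transcription factors OTX2 and MITF at 15.49 FPKM or more, whereas the visual cycle gene RPE65 was listed at 0.02 FPKM or less and BEST1 varied between 0.60 and 57.0 FPKM. Era+VK replicates 2 and 3 stand apart from the other 4 libraries, since their 10 globin genes sum to 235 and 228 FPKM, against 0.61 FPKM or less elsewhere. Results are therefore also given without them.

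LIF was by far the most abundant of the 10 transcripts under erastin, followed by CCL2, and the remaining 8 genes had means near or below 1 FPKM. LIF, a cytokine that sustains photoreceptors after retinal injury, was at 31.3 ± 1.29 FPKM (SD, n = 3) in Era, and its mean over the 6 libraries was the 1249th highest of the 33496 genes. CCL2 was at 3.54 ± 0.426 FPKM (SD, n = 3) in Era and CXCL8 at 1.08 ± 0.258 FPKM (SD, n = 3). LIF alone held between 79.96% and 88.48% of the summed FPKM of the 10 genes in a library. Its level was 7.42 to 10.6 times that of CCL2 within a library. IL6, often used as a readout of RPE inflammation, was at 0.280 ± 0.0693 FPKM (SD, n = 3) in Era, and its mean over the 6 libraries ranked 15887th. Only LIF and CCL2 reached 1 FPKM in every library. CXCL8, IL1B and CXCL1 reached it in at least 1 library.

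**Figure D1:**
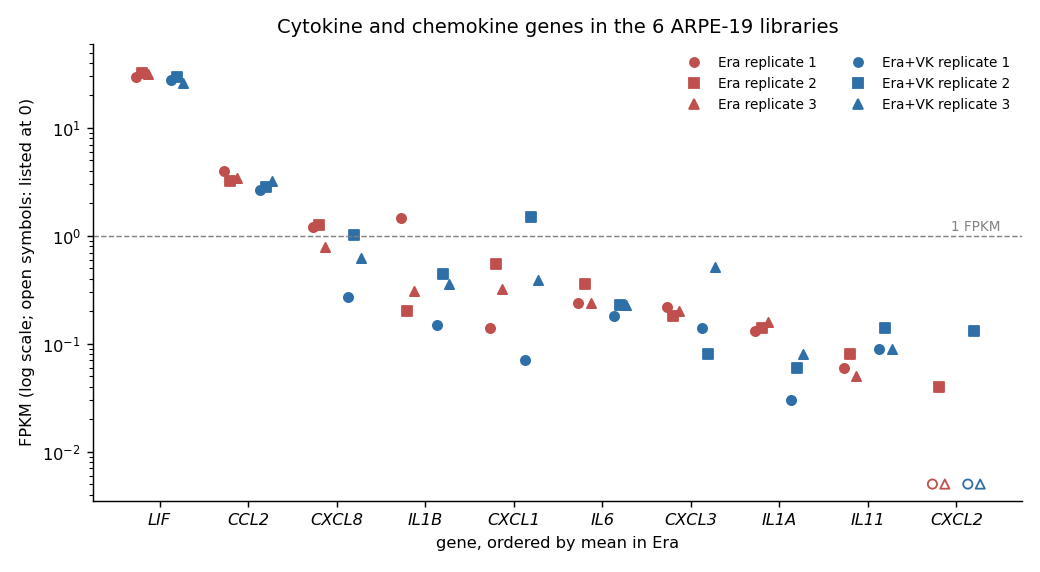
FPKM on a log axis of the 10 genes, ordered by their mean in Era, with 1 symbol per library (red for Era, blue for Era+VK, the shape giving the replicate number). LIF lies between 25.9 and 32.2 FPKM in all 6 libraries, CCL2 between 2.68 and 4.02 FPKM, and CXCL2 is listed at 0 in 4 libraries (open symbols at the bottom).

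In the order of means in Era, the libraries of LIF, CCL2 and CXCL8 did not overlap each other. Next came CXCL8, IL1B, CXCL1 and IL6, where each gene overlapped the one after it. Below them followed CXCL3, IL1A, IL11 and CXCL2, all at 0.22 FPKM or less in Era, with ranges that did not overlap. In Era+VK the same 2 genes, LIF and CCL2, stood above the rest without overlap.

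LIF and CCL2, the genes that could be tested, were both lower on average in Era+VK, at 0.890 and 0.818 times their mean FPKM in Era, and neither passed the test over all genes. LIF (ENSG00000128342) lies on the minus strand of chromosome 22 of GRCh38 from 30240447 to 30246851 in GENCODE 29, matched by gene identifier. Its values were 29.8, 32.2 and 31.9 FPKM in Era replicates 1, 2 and 3, and 27.7, 29.9 and 25.9 FPKM in Era+VK replicates 1, 2 and 3. The groups overlap only through Era+VK replicate 2, which lies just above Era replicate 1. The mean in Era+VK was 27.8 ± 2.02 FPKM (SD, n = 3), a log2 fold change of -0.16 (standard error 0.06, 95% interval -0.31 to -0.02, adjusted p = 0.258 in limma). On the FPKM + 1 scale this is 0.892 times the level in Era, with an interval of 0.809 to 0.984. The exact permutation test of the mean FPKM gave a two-sided p of 0.2, where 0.1 is the smallest p that 3 libraries against 3 allow. In a bulk sample, fewer cells that express a gene and less RNA per cell cannot be told apart.

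CCL2 (ENSG00000108691) lies on the plus strand of chromosome 17 from 34255218 to 34257203. It was listed at 4.02, 3.20 and 3.41 FPKM in Era replicates 1, 2 and 3, and at 2.68, 2.81 and 3.21 FPKM in Era+VK replicates 1, 2 and 3. Era+VK replicate 3 reaches the lowest Era library, and the other Era+VK libraries lie below all of Era. The mean in Era+VK was 2.90 ± 0.276 FPKM (SD, n = 3), with a log2 fold change of -0.22 (standard error 0.08, 95% interval -0.42 to -0.02, adjusted p = 0.278 in limma, exact permutation p = 0.2). Of the 11981 genes tested, 0.618% passed the threshold on the adjusted p in limma (0.484% lower and 0.134% higher in Era+VK), and 0 of these 2 genes did. Both log2 fold changes were below 0, as were 36.7% of those of all genes tested. Both had an unadjusted p under 0.05 (0.0277 for LIF and 0.0337 for CCL2), which was so for 15.8% of all genes tested and, among lower genes, for 5.42% of all genes tested. The median log2 fold change of all genes tested was 0.03. A p above the threshold does not show that LIF and CCL2 were at the same level in both groups, since the 95% intervals reach -0.31 and -0.42 on the log2 scale.

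**Figure D2:**
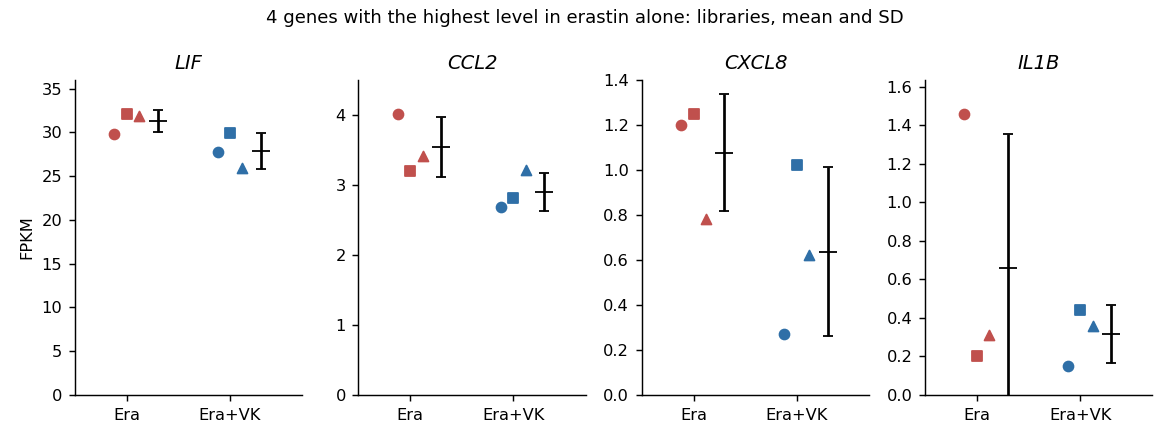
FPKM of LIF, CCL2, CXCL8 and IL1B on linear axes from 0, with 1 symbol per library and the mean and SD (n = 3) beside each group. LIF, CCL2 and CXCL8 overlap slightly between the groups, and the Era mean of IL1B is raised by 1 library at 1.46 FPKM, so that its SD bar would run below 0 and ends at the axis.

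With Era+VK replicates 2 and 3 left out together, the log2 fold change was -0.17 for LIF (adjusted p = 0.287 in limma) and -0.30 for CCL2 (adjusted p = 0.299 in limma), so neither value was smaller without the libraries that hold globin transcripts. Over 14 alternative fits, the log2 fold change of LIF stayed between -0.22 and -0.11 with adjusted p of 0.105 to 0.505 in limma. For CCL2 it stayed between -0.30 and -0.14 with adjusted p of 0.224 to 0.561 in limma. The value of CCL2 rests most on Era replicate 1, its highest library, without which the log2 fold change was -0.14.

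**Figure D3:**
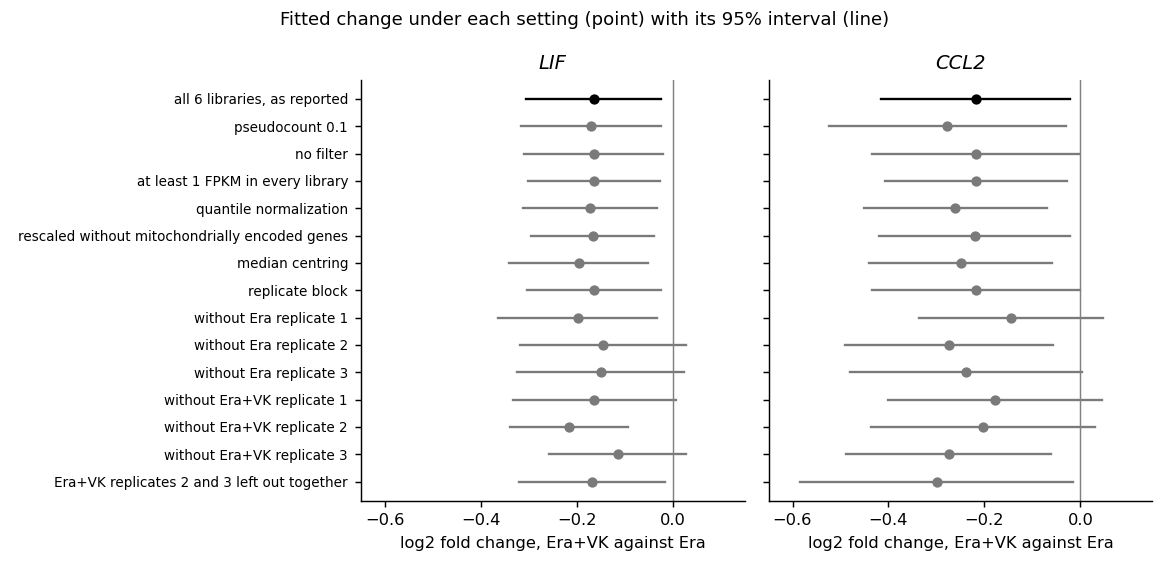
Log2 fold change of LIF and CCL2 (Era+VK against Era) with its 95% interval in limma for the fit on all 6 libraries, shown in black, and for each of 14 alternatives, shown in grey. Every point lies below 0, and several intervals reach 0 once a library is left out.

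The neutrophil-attracting chemokines were at low levels with or without VK1. CXCL8, CXCL1, CXCL2 and CXCL3 lie within 359 kb of chromosome 4 (73740506 to 74099293) and together summed to 1.63 ± 0.365 FPKM in Era against 1.58 ± 1.13 in Era+VK (SD, n = 3 each). CXCL8 (ENSG00000169429), which encodes interleukin-8, was at 1.20, 1.25 and 0.78 FPKM in Era replicates 1, 2 and 3 and at 0.27, 1.02 and 0.62 FPKM in Era+VK replicates 1, 2 and 3. Its mean in Era+VK of 0.637 ± 0.375 FPKM (SD, n = 3) was 0.591 times that in Era, with overlapping libraries (exact permutation p = 0.2). The lowest library of all was Era+VK replicate 1, without which the untested log2 difference of CXCL8 was -0.19, against -0.36 with it. Without Era+VK replicates 2 and 3 it was -0.70.
CXCL1 (ENSG00000163739) went the other way on average, and this rested on a single library. It was at 0.14, 0.55 and 0.32 FPKM in Era replicates 1, 2 and 3 and at 0.07, 1.51 and 0.39 FPKM in Era+VK replicates 1, 2 and 3. Era+VK replicate 2 thus held both the highest CXCL1 and the highest CXCL2, the latter at 0.13 FPKM. CXCL2 (ENSG00000081041) was otherwise listed at 0.04 FPKM in Era replicate 2 and at 0 in the other 4 libraries. Without Era+VK replicate 2 the untested log2 difference of CXCL1 was -0.12, against 0.23 with it. CXCL3 (ENSG00000163734) was at 0.22, 0.18 and 0.20 FPKM in Era and at 0.14, 0.08 and 0.51 FPKM in Era+VK, so its highest library was replicate 3.
On the log2(FPKM + 1) scale over the 6 libraries, CXCL1 and CXCL2 had a Pearson correlation of 0.95, both being highest in Era+VK replicate 2, while CXCL1 and CXCL3 had one of -0.32. The 6 points are the same libraries for every gene, and these values are descriptions only. CXCL1, CXCL2 and CXCL3 arose by duplication, so their values are less certain where reads match several copies, and how such reads were counted is not given in the sources used here. In the GENCODE 29 transcripts, 2.01% of the windows of 75 bases in CXCL2 also occurred in CXCL3 and 0.262% in CXCL1, and no window of 150 bases, the length of 1 read, was shared between any of the 10 genes.

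IL1A and IL1B, the ligands of IL1R1, had means under 1 FPKM in both groups. They lie within 63.0 kb of each other on chromosome 2 (112773915 to 112836903). IL1A (ENSG00000115008), an alarmin that is active without cleavage, was at 0.13, 0.14 and 0.16 FPKM in Era and at 0.03, 0.06 and 0.08 FPKM in Era+VK. Every Era+VK library was below every Era library (exact permutation p = 0.1, the smallest possible), with a mean 0.395 times that in Era. The same was seen for 3.03% of all genes with a mean above 0 and under 1 FPKM. With no minimum level set, the adjusted p of IL1A in limma was 0.308. IL1B (ENSG00000125538), which needs cleavage by caspase-1, was at 1.46, 0.20 and 0.31 FPKM in Era and at 0.15, 0.44 and 0.36 FPKM in Era+VK. Era replicate 1 was more than 3 times any other library for IL1B, and without it the untested log2 difference turned from -0.26 to 0.06.
Leukocyte markers were examined beside IL1B because monocytes and macrophages are its main source. The pan-leukocyte gene PTPRC was at 0.14 FPKM in Era replicate 1 and between 0.03 and 0.08 FPKM elsewhere, while CD14 was at 0 in that library. CSF1R, a macrophage receptor, was at 0.69 FPKM in Era replicate 1 and at 0.12 FPKM or less elsewhere, and the endothelial gene PECAM1 was at 0.39 FPKM there and at 0.18 FPKM or less elsewhere. The 11 leukocyte and endothelial markers other than CD68 summed to between 0.42 and 1.28 FPKM in Era, with the highest sum in Era replicate 1, and to between 0.31 and 0.44 FPKM in Era+VK. ITGAM, NKG7, LYZ, CDH5 and TEK were at 0 in Era replicate 1. The part of other cells in the value of IL1B was not tested.

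IL6 and IL11, the other IL-6 family members among the 10 genes, were both under 0.4 FPKM in every library and differed in opposite directions. IL6 (ENSG00000136244, plus strand of chromosome 7 from 22725884 to 22732002) was at 0.24, 0.36 and 0.24 FPKM in Era and at 0.18, 0.23 and 0.23 FPKM in Era+VK. IL11 (ENSG00000095752, minus strand of chromosome 19 from 55364389 to 55370463), a cytokine linked to fibrosis, was at 0.06, 0.08 and 0.05 FPKM in Era and at 0.09, 0.14 and 0.09 FPKM in Era+VK. The groups do not overlap for either gene, though the gap is 0.01 FPKM in each, the smallest step that the files can show. Among the 8 genes with a mean under 1 FPKM, the groups did not overlap for 3, IL6 and IL1A (lower) and IL11 (higher). This was so for 6.45% of all genes with a mean above 0 and under 1 FPKM, 3.03% lower and 3.42% higher. Each of the 3 had an exact permutation p of 0.1, the smallest that the design allows. With no minimum level set, their adjusted p in limma lay between 0.308 and 0.755. Over all 10 genes, the mean was lower in Era+VK for 6 and higher for 4. Of all genes tested 36.7% were lower, and no such share is given for genes under 1 FPKM. The log2 differences of IL1B, CXCL1, CXCL2 and CXCL3 changed sign when 1 library was left out.

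The wider IL-6 family and its receptors put the LIF level in context. Of 16 listed genes, 14 were in the files and 5 reached the minimum mean of 1 FPKM that the test required, LIF among them, and of these 3 were lower and 2 higher in Era+VK, with 0 past the threshold in limma and 2 at an unadjusted p under 0.05. CLCF1, a ligand of the ciliary neurotrophic factor receptor, averaged 20.8 ± 1.75 FPKM in Era against 21.97 ± 0.465 in Era+VK (SD, n = 3 each). Cardiotrophin-1 (CTF1) was at 4.86 and 4.39 FPKM. The receptor subunits were uneven. The common chain gp130 (IL6ST) averaged 16.8 ± 0.816 FPKM in Era against 17.4 ± 1.37 in Era+VK, and OSMR, the oncostatin M receptor, at 19.4 ± 0.338 and 17.3 ± 1.24 FPKM (SD, n = 3 each). The log2 fold change of OSMR was -0.16 (adjusted p = 0.244 in limma), with no overlap between the groups. The groups did not overlap for 22.1% of all genes tested. The chains LIFR, IL6R and IL11RA were lower than IL6ST and OSMR, with means in Era of 0.283, 0.497 and 0.427 FPKM. LIF itself was thus far above LIFR, a chain of its receptor, in level, on the FPKM scale.

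**Figure D4:**
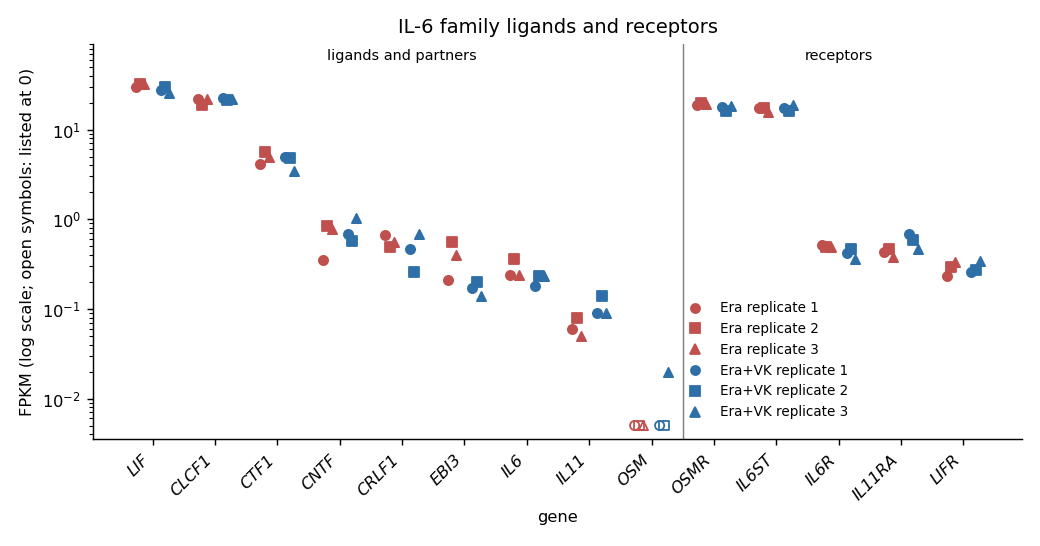
FPKM on a log axis of the IL-6 family ligands with their partners, and of the receptors, in the 6 libraries, with colours for the groups and shapes for the replicates. LIF, CLCF1, OSMR and IL6ST are above 15 FPKM in every library, whereas LIFR, IL6R and IL11RA stay under 1 FPKM and OSM is listed at 0 in 5 libraries.

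Downstream of these receptors, 14 of 18 listed genes of JAK-STAT3 signalling and feedback were tested, 12 of them higher and 2 lower, with 0 past the threshold in limma and 3 at an unadjusted p under 0.05. Their median log2 fold change was 0.09. Of all genes tested, 36.7% were lower and 15.8% had an unadjusted p under 0.05 in limma, and the counts of every list are to be read beside these shares. The kinases JAK1 and TYK2 and the phosphatase PTPN11 were the most abundant, at 20.95, 9.83 and 22.4 FPKM in Era. The STAT3-induced inhibitor SOCS3 averaged 2.20 ± 0.382 FPKM in Era against 2.37 ± 0.299 in Era+VK (SD, n = 3 each).

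Receptors and processing genes of the IL-1 family were partly present. Of 23 listed genes 10 were tested, 6 lower and 4 higher, with 0 past the threshold in limma and 2 at an unadjusted p under 0.05. IL18, a further cytokine of the family that caspase-1 cleaves, averaged 40.9 FPKM in Era against 41.0 in Era+VK, far above IL1A and IL1B. CAPN2 and CAPN1, calpain proteases of the kind that can cleave pro-IL-1α, were at 55.2 and 21.65 FPKM in Era. CASP1 itself was at 0.39 FPKM, the receptor IL1R1 at 0.363 FPKM and the antagonist IL1RN at 0.29 FPKM in Era. Of 26 other chemokines and chemokine receptors 18 were in the files, and only ACKR3, CXCL16 and CXCR4 reached the minimum, 0 of them past the threshold in limma and 2 at an unadjusted p under 0.05. ACKR3, a scavenging receptor for CXCL12, averaged 23.35 FPKM in Era against 22.2 in Era+VK. CXCL16, a membrane-bound chemokine, was at 5.33 ± 0.431 and 6.72 ± 0.327 FPKM (SD, n = 3 each), without overlap between the groups (adjusted p = 0.107 in limma). Such a lack of overlap was seen for 22.1% of all genes tested. CXCR4, the receptor of CXCL12, was at 5.57 and 4.48 FPKM. The receptors CXCR2 and CCR2, through which the chemokines described here act, were at 0.14 FPKM or less in every library.

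Among 20 other cytokines and growth factors of inflammation, 8 were tested and 1 passed. TGFB2, a growth factor that drives mesenchymal transition of RPE, was at 47.58, 46.99 and 48.45 FPKM in Era and at 38.57, 38.98 and 37.29 FPKM in Era+VK. It fell by 0.31 on the log2 scale (standard error 0.04, adjusted p = 0.0213 in limma). MIF, a constitutively made inflammatory cytokine, averaged 428.5 FPKM in Era against 433.9 in Era+VK, and the nuclear alarmin HMGB1 24.2 and 24.45 FPKM. TNF was at 0.05 FPKM or less in every library.

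The regulators of these genes were expressed, and most did not pass the test. Of 25 NF-κB subunits and kinases 20 were tested, 15 higher and 5 lower, with 0 past the threshold in limma and 2 at an unadjusted p under 0.05. Among all genes tested, 36.7% were lower and 15.8% had an unadjusted p under 0.05 in limma. RELA averaged 17.8 FPKM in Era against 16.9 in Era+VK, and the most abundant were IRAK1 (64.1 and 60.8 FPKM), TNFRSF1A (44.4 and 42.1 FPKM) and TAB2 (22.6 and 23.5 FPKM). Of 22 NF-κB target and feedback genes 15 were tested, 8 higher and 7 lower, with 0 past the threshold in limma and 1 at an unadjusted p under 0.05. The stress gene IER3 was at 33.8 and 37.1 FPKM, the NF-κB inhibitor NFKBIA at 7.66 and 8.66 FPKM, TNIP1 at 23.5 and 22.5 FPKM and BIRC2 at 13.5 and 14.3 FPKM in Era and Era+VK. The single gene with an unadjusted p under 0.05 was the pentraxin PTX3, at 6.54 ± 2.03 and 4.06 ± 0.648 FPKM (SD, n = 3 each; adjusted p = 0.208 in limma).
In the list of C/EBP, AP-1 and stress transcription factors, 14 of 16 genes were tested, 10 lower and 4 higher, and 2 fell past the threshold. ATF4 fell by 0.55 on the log2 scale (adjusted p = 0.0128 in limma), from 139.5 to 95.1 FPKM on average. CEBPG, the partner of ATF4 and of other C/EBP factors, averaged 8.05 ± 0.610 FPKM in Era against 5.21 ± 0.272 in Era+VK (SD, n = 3 each), and fell by 0.54 on the log2 scale (standard error 0.06, adjusted p = 0.0196 in limma). HIF1A was at 180.5 and 169.8 FPKM and JUND at 69.8 and 68.6 FPKM. Of 15 AU-rich element RNA-binding and decay factors, all of them tested, 10 were higher and 5 lower, with 0 past the threshold in limma and 4 at an unadjusted p under 0.05. YBX1 was at 211.6 and 210.9 FPKM, KHSRP at 48.8 and 47.5 FPKM and ZFP36L1 at 47.5 and 40.2 FPKM in Era and Era+VK, the last without overlap (adjusted p = 0.149 in limma). Its paralogue ZFP36L2 was higher without overlap, at 11.7 and 15.3 FPKM (a log2 difference of 0.36, adjusted p = 0.0813 in limma), as was AUH, at 4.68 and 6.15 FPKM (0.33, adjusted p = 0.0664 in limma). Across all genes tested, 22.1% had no overlap between the groups.

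All 13 lists together held 134 tested genes, of which 3 (2.24%) passed in limma, ATF4, CEBPG and TGFB2, against 0.618% of all genes tested. The lists were chosen with earlier results of these data known, so the higher share is no evidence that such genes changed more often than others. Without Era replicate 1, 2 or 3 the adjusted p of the 3 genes in limma lay between 0.0619 and 0.121, while the log2 fold changes stayed between -0.58 and -0.52 for ATF4, -0.60 and -0.50 for CEBPG, and -0.32 and -0.30 for TGFB2. TGFB2 was also above the threshold in limma without Era+VK replicate 1 (adjusted p = 0.0502) and without Era+VK replicate 3 (adjusted p = 0.0771), and CEBPG without Era+VK replicate 3 (adjusted p = 0.0545). With Era+VK replicates 2 and 3 left out together, ATF4 passed in limma (log2 fold change -0.66, adjusted p = 0.0195), and CEBPG (-0.62, adjusted p = 0.0812) and TGFB2 (-0.30, adjusted p = 0.0966) did not, with fold changes about as large as with all libraries or larger.

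**Figure D5:**
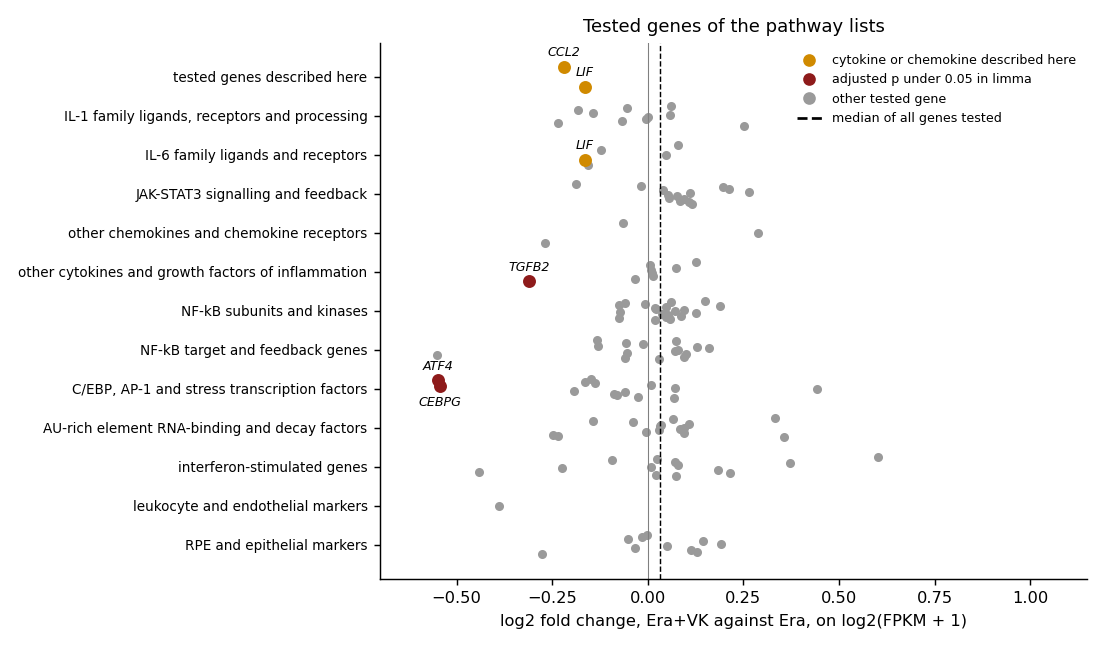
Log2 fold change (Era+VK against Era) of each tested gene of the lists, with LIF and CCL2 in orange, genes past the adjusted threshold in limma in dark red and the median of all genes tested, 0.03, as a dashed line. LIF and CCL2 lie at -0.16 and -0.22, nearer to 0 than TGFB2, ATF4 and CEBPG, and the list of erythroid genes is left out.

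The remaining lists describe the cells. Of 20 interferon-stimulated genes 13 were tested, 10 higher and 3 lower, with 0 past the threshold in limma and 1 at an unadjusted p under 0.05, the RNA sensor IFIH1. The shares over all genes tested were 36.7% lower and 15.8% with an unadjusted p under 0.05 in limma. STAT2 was at 9.71 and 10.3 FPKM, IFI6 at 8.64 and 9.09 FPKM and IFI35 at 4.24 and 4.33 FPKM in Era and Era+VK. Of 13 leukocyte and endothelial markers CD68, a lysosomal protein that other cells also make, was the only one tested, averaging 47.9 ± 4.02 FPKM in Era against 36.3 ± 1.95 in Era+VK (SD, n = 3 each; adjusted p = 0.0628 in limma). Of 21 RPE and epithelial markers 10 were tested, 5 lower and 5 higher, with 0 past the threshold in limma and 3 at an unadjusted p under 0.05. The mesenchymal filament gene VIM was at 935 and 771 FPKM in Era and Era+VK (adjusted p = 0.0644 in limma). Of 14 erythroid genes 6 were tested (all of them globins, led by HBG2, HBE1 and HBG1), with 0 past the threshold in limma. They were at 0.05 FPKM or less in Era and in Era+VK replicate 1, and reached the minimum mean only through Era+VK replicates 2 and 3. All 6 had an unadjusted p under 0.05 in limma, which rests on the same libraries and cannot be read as a difference between the groups.

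The 5 tested genes whose pattern over the 6 libraries was most like that of LIF, by Pearson correlation of log2(FPKM + 1), were DTD1 (0.996), RNPS1 (0.989), CNRIP1 (0.986), KBTBD11-AS1 (0.982) and PIGC (0.977). In total 93 tested genes had a correlation of at least 0.9 with LIF. The points are the same 6 libraries for all genes, and no p is given. Among the 10 genes themselves, the highest correlations with LIF were those of IL1A (0.69), CXCL8 (0.63) and IL6 (0.61), and the lowest was that of CXCL3 (-0.62). CCL2 correlated most with IL1B (0.79) and IL1A (0.76), the first through Era replicate 1, which holds the highest value of both.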

How the data were processed

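RNA-seq of 6 ARPE-19 libraries (3 Era, 3 Era+VK) was analysed, and groups and replicate numbers were taken from the sample titles. The authors deposited FPKM values per gene, 1 library per file, from paired-end reads of 150 bases. The submitters' processing notes name cutadapt, HISAT2 and StringTie 2.1.6 and the mouse build mm10, while the genes carry human Ensembl identifiers, so the human build is not given in the sources used here. The cell line label counts upwards from library to library, and all 6 were taken as ARPE-19, as titled.

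The 11981 genes whose mean over the 6 libraries reached 1 FPKM were compared (Era+VK against Era) on log2(FPKM + 1) by limma 3.58.1 with trend, in R 4.3.3, with Benjamini-Hochberg adjustment over all of them and a threshold of 0.05. Fold changes on that scale understate those of low genes. The fit was tested on simulated data. Single genes were compared by exact two-sided permutation tests. Positions are from GENCODE 29 (GRCh38) and promoters from RefSeq. The 10 genes and the 13 lists were chosen with earlier results of these data known. Named were all 10 genes, of each list the genes past the threshold and the 3 with the highest mean, and the 5 genes most like LIF; receptors of the 10 genes, leukocyte markers, regulators and other genes given with values were named for their role or after their values were seen. Alternatives were a pseudocount of 0.1, other filters, 3 other scalings, a replicate block and libraries left out.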

Additional observations from a re-analysis of the deposited data

How the results depend on the processing

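None of the 10 genes passed in limma in the fit reported or in any of 14 alternatives (8 of them were tested only with no filter), and LIF and CCL2 kept their direction in all 14. The number of all genes past the threshold did depend on the processing. It was 74 in the fit reported, 1 with no filter on low genes, 122 with at least 1 FPKM in every library, 112 after quantile normalization, 119 after centring on the median, and between 2 and 71 with 1 library left out (3, 2 and 5 without Era replicates 1, 2 and 3, and 42 without Era+VK replicate 3). Without Era+VK replicates 2 and 3 together it was 51, in a fit that takes the lone Era+VK library to vary like the Era libraries. With no filter, 31325 genes were tested in place of 11981. Of the listed genes, 3 passed in the fit reported, 0 with no filter, 5 with at least 1 FPKM in every library, 5 after rescaling without mitochondrially encoded genes, 5 after centring on the median, and between 0 and 9 with 1 library left out. With the replicate number as a block, 42 of all genes and 2 of the listed genes passed, TGFB2 not among them (log2 fold change -0.31 as without the block, adjusted p = 0.0807 in limma). The deviations of same-numbered libraries correlated at 0.071, 0.103 and 0.021, and those of other pairs at -0.114 to 0.040. Era replicates 1 and 2 correlated best with the Era+VK library of their own number, and Era replicate 3 with Era+VK replicate 1 (0.040). These small values do not settle whether the libraries were paired. The fit reported takes them as unpaired, since the labels state no pairing.

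Among the 8 untested genes, the log2 difference changed sign for IL1B without Era replicate 1 (0.0641), for CXCL1 without Era+VK replicate 2 (-0.121) and for CXCL2 without it (-0.0189), for CXCL3 with a pseudocount of 0.1 or without Era+VK replicate 3, and for CXCL1, CXCL2 and CXCL3 without Era+VK replicates 2 and 3. IL6, IL1A, IL11 and CXCL8 kept their sign in 9 of 9 alternatives that give a value. For IL6, IL1A and IL11 the groups do not overlap, so neither leaving out libraries nor another pseudocount could turn the sign. The cause of the other changes was not tested. Depth is unknown, so no detection limit can be set for the genes near 0.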
